A study of Gallus gallus with 2 samples.

Results

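The genes described here encode proteins that spend ATP to move something across a membrane: ATP-binding cassette (ABC) transporters, the pumps of sodium and potassium and of calcium, the vacuolar proton pump, and lipid flippases. A probe was taken as a member if its gene name on the array began with the family symbol of 1 of these classes (ABC subfamilies A to G, ATP1, ATP2, ATP6 to ATP11 or ATP13). This gave 32 genes of the 40231 gene names on the array, measured by 36 of its 42034 probes. They were 13 probes for 12 ABC genes, 3 probes for 3 sodium-potassium pump genes, 5 probes for 4 calcium pump genes, 13 probes for 11 vacuolar pump genes and 2 probes for 2 flippase genes.

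The cells were intestinal intraepithelial lymphocytes (IEL), lymphocytes that lie among the epithelial cells of the gut lining. Broiler chickens fed direct fed microbials (DFM, live bacteria in the feed, with the strains not given in the sources used here) were compared at day 14 with untreated broilers of the same age. Each of 2 arrays on 1 slide received RNA of both groups, with DFM in Cy5 and control in Cy3 on replicate 1 and the dyes exchanged on replicate 2. The labels call the second array a biological replicate as well as the dye exchange, and do not give the number of birds or whether their RNA was pooled. The p-values of limma, the test used below, rest on how far these 2 arrays differ, and that spread may be technical. For each probe, limma joins its own spread (1 degree of freedom) with a prior from all tested probes (7.52 degrees of freedom). The scanner software's p-values are each within 1 array.

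ABC transporters bind and hydrolyse ATP at a pair of nucleotide-binding domains and so export, or in some subfamilies import or flip, lipids, drugs, bile salts and conjugates. P-type pumps, which include the sodium-potassium and calcium pumps and the flippases, pass through a phosphorylated intermediate in each transport cycle. The vacuolar pump (V-ATPase) is a rotary machine whose soluble V1 sector hydrolyses ATP while its membrane V0 sector carries protons into lysosomes, endosomes or secretory vesicles. In the gut, efflux ABC transporters sit at the apical face of enterocytes, the sodium-potassium pump at their basolateral face drives nutrient uptake, and in lymphocytes calcium pumps refill the stores that antigen receptor signalling empties.

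Ratios are relative to the average probe, because loess centres each array, and the median log2 ratio over all 18242 tested probes was 0.00. The 10 spike-in RNAs added during labelling gave a median log2 DFM over control of -2.12, from -2.33 to -1.89, averaged over the dye exchange. On single arrays they spread far more, from -4.71 to 1.15 on replicate 1 and from -5.59 to 0.82 on replicate 2. The mean ratios of all 29 tested members lay above the highest spike-in average. The words "higher" and "lower" below thus hold against the average probe and not against the spike-ins. Over the tested probes, the ratios of the 2 arrays correlated at r = 0.82 across probes, which are not independent replicates. In such bulk RNA, fewer cells of a type and less RNA per cell cannot be told apart.

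The probes called higher with DFM were 3 of the 4 tested calcium pump probes and the probe of the sodium-potassium pump's beta subunit ATP1B1, and those called lower were ABC and vacuolar pump probes. Testing required that DFM, control or both be well above background on each array, and 29 of the 36 member probes, for 25 genes, met this. Of these, 4 rose, 6 fell and 19 were not called by limma at an adjusted p under 0.05. Over all tested probes, 12.1% were called higher and 10.5% lower, or 22.6% in either direction.

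The median log2 ratio of the tested members was -0.27, with -0.27 on replicate 1 and -0.18 on replicate 2, and the ratios ran from -0.93 to 1.26. Both DFM channels lay below both control channels for 15 members and above them for 8, and the groups overlapped for 6. The same was seen for 33.9% of all tested probes below and 34.1% above. The ratio was below 0 on both arrays for 17 members, against 38.2% of all tested probes. It had the same sign on both arrays for 26 of 29, against 76.0% of all, and the exceptions were both probes of ATP6V1A and the probe of ATP6V1G3. The ratio was larger in size on replicate 1 for 22 of 29 members, against 61.9% of all tested probes.

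**Figure D1:**
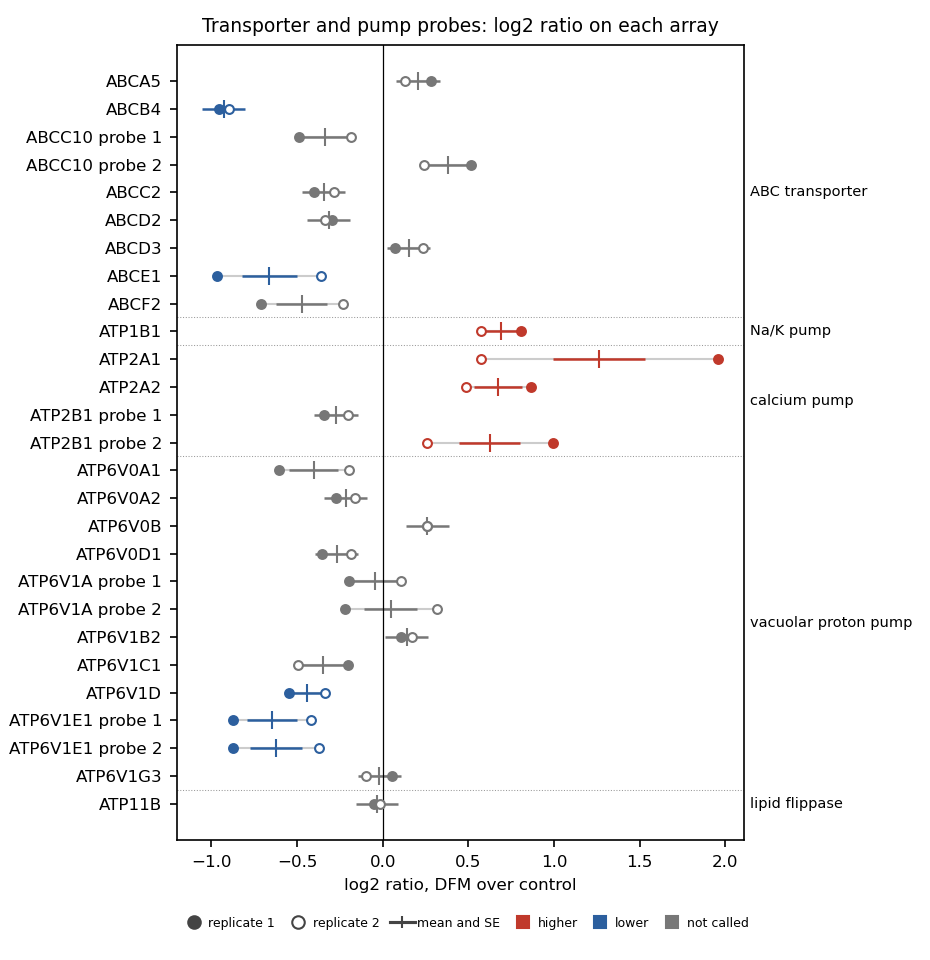
The log2 ratio of DFM over control of 27 of the 29 tested transporter and pump probes on the horizontal axis, by class, with replicate 1 as filled and replicate 2 as open circles and the mean with limma's SE as a bar. The 4 probes called higher are in the sodium-potassium and calcium pump classes, and the 5 plotted probes called lower are in the ABC and vacuolar classes.

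Among the ABC transporters, 3 of 10 tested probes fell and 7 were not called, with a median log2 ratio of -0.34 (-0.45 on replicate 1 and -0.26 on replicate 2). Of all tested probes 10.5% fell, and whether the class departs from that share was not tested. ABCB4 and ABCE1, which differ in location and function, were among the ABC probes that fell. Of the ABC probes found by array name, the one named ABCB4 had the highest spot signal (A_87_P037525, galGal2 chromosome 2, 20017151 to 20017210). The accession of this probe now carries the symbol ABCB1 in RefSeq. ABCB1 encodes P-glycoprotein, which exports many hydrophobic drugs and toxins from enterocytes and lymphocytes, whereas mammalian ABCB4 moves phosphatidylcholine into bile.

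The normalized log2 signal of the ABCB4 probe was 13.85 and 13.91 in the DFM channels of replicates 1 and 2, and 14.81 and 14.81 in the control channels. Both DFM values lay below both control values, and each group varied little between arrays. The log2 ratio was -0.96 on replicate 1 and -0.90 on replicate 2, a mean of -0.93 (SE 0.12, n = 2 arrays) or 1.90-fold lower with DFM, with limma's adjusted p = 0.00163. It had the lowest mean ratio of the 29 tested members.

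ABCE1 has no membrane-spanning part and splits ribosomes after translation has ended. Its probe (A_87_P035427, galGal2 chromosome 4, 31503764 to 31503823) gave log2 signals of 7.58 and 7.82 with DFM and 8.55 and 8.18 in the control. Both DFM values were the lower ones, but the ratio of -0.97 on replicate 1 was larger in size than the -0.36 on replicate 2. The mean was -0.66 (SE 0.16), or 1.58-fold lower, with limma's adjusted p = 0.0211. ABCF2, another ABC protein without a membrane part, missed the threshold at a mean log2 ratio of -0.47 (SE 0.15), with ratios of -0.71 and -0.23 and limma's adjusted p = 0.0521. Its mean log2 signal of 6.70 was close to the 6.37 of the dimmest tested member.

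The remaining tested ABC probes were not called. ABCC2, which exports glucuronide and glutathione conjugates at the apical membrane, had log2 signals of 11.10 and 11.21 with DFM against 11.50 and 11.50 in the control. Its groups did not overlap, and its mean log2 ratio was -0.35 with limma's adjusted p = 0.0816. The peroxisomal fatty acid importers ABCD2 and ABCD3 had mean log2 ratios of -0.32 and 0.15, and ABCA5, of the lipid-transporting A subfamily, had 0.21.

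ABCC10, a multidrug resistance protein, has a pair of probes that lie 4457 bases apart on galGal2. Their mean log2 ratios were -0.34 (limma's adjusted p = 0.109) and 0.38 (limma's adjusted p = 0.0725), each with the same sign on both arrays. The probes thus differed by 0.71 on the log2 scale in opposite directions, and that difference was not tested. The probe with -0.34 had a mean log2 signal of 6.44, close to the 6.37 of the dimmest tested member, and the other had 9.29. With a background offset of 0 their means were -0.81, which limma called lower, and 0.42, which was not called. The cholesterol exporters ABCA1 and ABCG1 and the conjugate exporter ABCC1 had none of the 4 channels well above background.

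**Figure D2:**
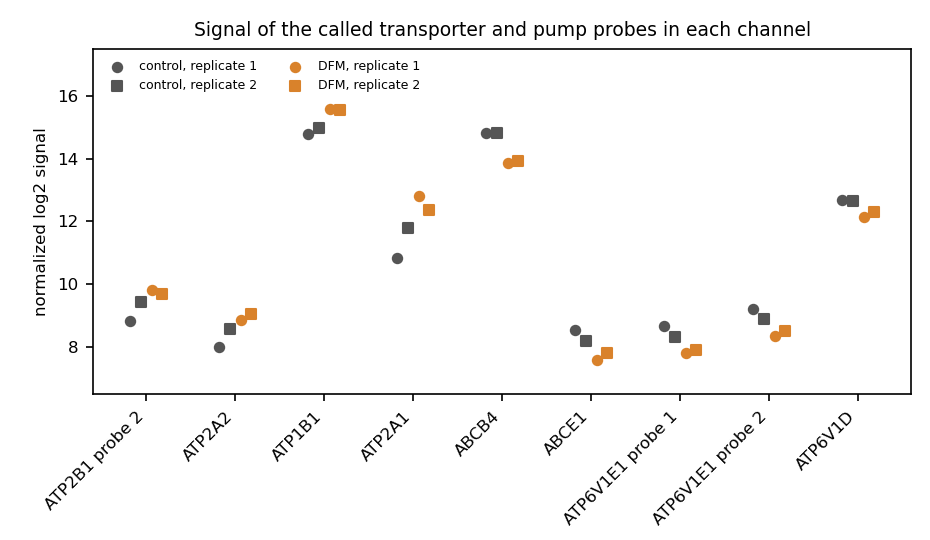
Normalized log2 signal of 9 of the 10 called transporter and pump probes in each channel, with control in grey, DFM in orange, replicate 1 as circles and replicate 2 as squares. The DFM points lie on 1 side of the control points for each of the 9 probes, and levels of different probes are not comparable.

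The sodium-potassium pump consists of a catalytic alpha and a glycosylated beta subunit that brings alpha to the plasma membrane. Of 2 tested probes of this class, 1 rose, against 12.1% of all tested probes, and 1 was not called. ATP1B1 (A_87_P009550, galGal2 chromosome 1, 77859296 to 77859356) gave log2 signals of 15.58 and 15.56 with DFM and 14.77 and 14.98 in the control. Both DFM values were above both control values. The ratios were 0.81 and 0.58, a mean of 0.69 (SE 0.13) or 1.62-fold higher, with limma's adjusted p = 0.00749.

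ATP1B3, another beta subunit, was not well above background in any channel. Of the fixed list of sodium-potassium pump partners and related proton-potassium pumps, 4 genes were found by name (ATP12A, ATP4B, FXYD2 and NKAIN4), and no channel of theirs was well above background. This list and the other fixed lists below were chosen with earlier results of these data known.

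Among the classes by array name, calcium pumps had the most called members for their number. Of 4 tested probes, for 3 genes, 3 rose, against 12.1% of all tested probes. The median log2 ratio was 0.65 (0.93 on replicate 1 and 0.37 on replicate 2). A further 2 tested calcium pump probes, named through RefSeq and given below, had 0 calls. The 3 probes that rose belong to ATP2A1 and ATP2A2, which load calcium into the endoplasmic or sarcoplasmic reticulum, and to ATP2B1, which expels it through the plasma membrane. ATP2A1 encodes the pump of fast skeletal muscle in mammals and birds. Its probe (A_87_P009379, placed on galGal2 chromosome Un, 130074586 to 130074645) was the member with the highest ratio.

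The ATP2A1 probe gave log2 signals of 12.80 and 12.35 with DFM and 10.85 and 11.78 in the control. Both DFM values were higher, but the control differed between arrays by more than the DFM channels did. The ratio was 1.96 on replicate 1 and 0.57 on replicate 2, a mean of 1.26 (SE 0.27) or 2.40-fold higher, with limma's adjusted p = 0.0123. This SE is drawn toward the spread of all tested probes and is smaller than the probe's own 2 ratios would give. The probe had no entry in the RefSeq table used for names, so its gene name is that of the array's design. Markers of stroma and smooth muscle gave 2 probes higher, 2 lower and 6 not called among 10 tested, with FBN1 and PECAM1 higher, MYH11 and POSTN lower and DES not well above background in any channel. Of all tested probes, 12.1% were called higher and 10.5% lower. The part of these markers in the ATP2A1 result was not tested, and no skeletal muscle markers were listed.

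ATP2A2 is the reticulum pump of most cells. Its probe (A_87_P009308, galGal2 chromosome 15, 5259297 to 5259353) gave log2 signals of 8.85 and 9.05 with DFM and 7.99 and 8.57 in the control. The groups did not overlap. Its ratios of 0.86 and 0.48 had a mean of 0.67 (SE 0.14), or 1.59-fold higher, with limma's adjusted p = 0.0113.

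The plasma membrane pump ATP2B1 has a pair of probes on galGal2 chromosome 1, 23335 bases apart, that moved apart. The probe at 40207725 to 40207784 (A_87_P027940) gave log2 signals of 9.81 and 9.69 with DFM and 8.82 and 9.43 in the control. Both DFM values were above both control values. Its ratios of 0.99 and 0.26 had a mean of 0.62 (SE 0.18), or 1.54-fold higher, with limma's adjusted p = 0.0367. The probe at 40184390 to 40184449 (A_87_P009517) gave 9.48 and 8.60 with DFM and 9.83 and 8.80 in the control, so that its groups overlapped. Its mean log2 ratio of -0.27 (SE 0.13) was not called, with limma's adjusted p = 0.154. The probes differed by 0.90 on the log2 scale, a difference that was not tested, and ATP2B1 therefore has no single direction here. ATP2B4, another plasma membrane pump, was not well above background in any channel.

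Among the fixed list of calcium pump regulators and calcium store genes, 1 of 11 tested probes rose, 2 fell and 8 were not called, with a median log2 ratio of -0.22. Of all tested probes, 12.1% rose and 10.5% fell, and whether the list departs from these shares was not tested. STIM1, the reticulum calcium sensor that opens store-operated entry, rose with log2 ratios of 0.90 and 0.80 and a mean of 0.85 (limma's adjusted p = 0.00256). The release channel ITPR3 fell on 1 of its probes by 0.74 on the log2 scale (limma's adjusted p = 0.00707), and TMCO1, a calcium leak channel of the reticulum, fell by 0.48 (limma's adjusted p = 0.0306). The phospholamban gene PLN, the ryanodine receptor genes RYR1 and RYR2 and the sodium-calcium exchanger genes SLC8A1 and SLC8A3 had no channel well above background.

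Of the 12 tested probes of the vacuolar proton pump, 3 fell and 9 were not called, with a median log2 ratio of -0.24 (-0.25 on replicate 1 and -0.17 on replicate 2). All 3 belong to the V1 sector, for which 8 probes were tested, and they represent the subunits E and D. In the V0 sector 4 probes with an ATP6 name were tested and 0 were called by limma. Of these, 1 had limma's unadjusted p under 0.05, as did 6744 of all 18242 tested probes. The V0 probe ATP6V0D1 was called lower by limma with a background offset of 0 and with the scanner software's ratio. Whether the sectors differ, or the class departs from the 10.5% of all tested probes called lower, was not tested.

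ATP6V1E1 encodes subunit E, part of the peripheral stalks that hold the catalytic head still. Its probes lie 2086 bases apart on galGal2 chromosome 1 and gave nearly the same values. The probe at 58443537 to 58443596 (A_87_P036656) gave log2 signals of 7.80 and 7.91 with DFM and 8.68 and 8.33 in the control. Its mean log2 ratio was -0.65 (SE 0.15), or 1.57-fold lower, with ratios of -0.87 and -0.42 and limma's adjusted p = 0.0161. The second probe repeated this pattern. The probe at 58441451 to 58441483 (A_87_P036657) gave 8.35 and 8.51 with DFM and 9.23 and 8.88 in the control. Its mean was -0.62 (SE 0.15), or 1.54-fold lower, with ratios of -0.87 and -0.37 and limma's adjusted p = 0.0205. In both probes all DFM values lay below all control values, and the means differed by 0.02.

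ATP6V1D encodes subunit D of the central rotor shaft and had the highest spot signal of the vacuolar pump probes found by array name. Its probe (A_87_P021909, galGal2 chromosome 5, 25883024 to 25883083) gave log2 signals of 12.15 and 12.31 with DFM and 12.69 and 12.64 in the control. The groups did not overlap. The ratios of -0.55 and -0.34 had a mean of -0.44 (SE 0.13), or 1.36-fold lower, with limma's adjusted p = 0.0409.

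The other V1 probes were not called. The catalytic subunit A, ATP6V1A, had log2 ratios of opposite sign on the 2 arrays in both of its probes, with means of -0.05 and 0.05. Its nucleotide-binding partner ATP6V1B2 had a mean of 0.14, the stalk subunit ATP6V1C1 -0.35 (limma's adjusted p = 0.0949) and ATP6V1G3 -0.02. In V0, the a subunits ATP6V0A1 and ATP6V0A2, which form the proton path together with the ring, had means of -0.40 (limma's adjusted p = 0.0743) and -0.22. The ring subunit ATP6V0B had 0.26 on both arrays, with limma's adjusted p = 0.166. ATP6V0D1, the V0 subunit that meets the shaft, had a mean of -0.27, with its DFM channel well above background on 1 of 2 arrays, and its relative ATP6V0D2 was not well above background in any channel.

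Of the fixed list of V-ATPase partners and lysosome genes, 2 of 13 tested probes rose, 1 fell and 10 were not called, with a median log2 ratio of 0.02. These counts stand beside 12.1% higher and 10.5% lower of all tested probes, a comparison that was not tested. TCIRG1, which encodes the a3 subunit of V0 but carries no ATP6 name, rose with ratios of 1.07 and 0.55 and a mean of 0.81 (SE 0.15, limma's adjusted p = 0.00746). WDR7, a subunit of a regulator of V-ATPase assembly, rose with a mean of 0.44 (limma's adjusted p = 0.0473). LAMP1, an abundant lysosomal membrane glycoprotein, had ratios of -0.75 and -0.37 and fell by 0.56 on the log2 scale (limma's adjusted p = 0.0224).

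P4-type flippases move phosphatidylserine and phosphatidylethanolamine to the inner leaflet of membranes. ATP11B, the tested flippase, had log2 signals of 6.46 and 6.42 with DFM and 6.51 and 6.43 in the control. These values overlapped, and its mean log2 ratio was -0.03 with limma's adjusted p = 0.866. ATP11A was well above background only in Cy5, which held DFM on replicate 1 and control on replicate 2, and was not tested. Of the fixed list of flippase subunits and scramblases, 2 of 3 tested probes fell, against 10.5% of all tested probes. The 2 that fell were XKR9, of the family of apoptotic scramblases, with a mean log2 ratio of -0.88 (limma's adjusted p = 0.00223), and PLSCR1, named as a phospholipid scramblase, with -0.64 (limma's adjusted p = 0.00881). The flippase beta subunit TMEM30A had -0.26 and was not called.

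**Figure D3:**
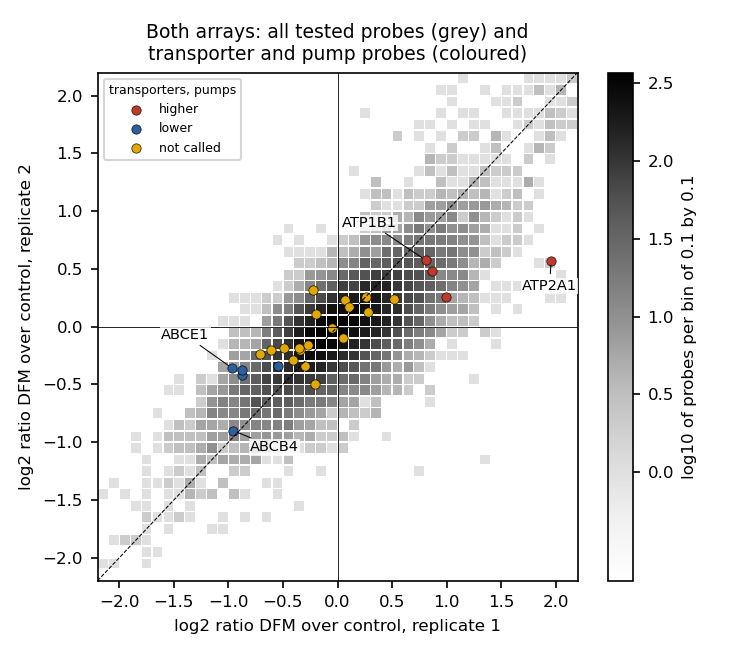
The log2 ratio of DFM over control on replicate 1 (horizontal) and replicate 2 (vertical), with all tested probes within the axes as grey bins shaded by the log10 of their number and 27 of the 29 tested members as points coloured by call. Most members lie near the dashed line of equal ratios, and the ATP2A1 probe, at 1.96 and 0.57, lies farthest from it.

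Many family members carry only a clone or locus name on the array and were reached through RefSeq symbols. The same name pattern applied to those symbols gave 42 further probes for 34 genes, of which 20 probes were tested. Of these 1 rose, 2 fell and 17 were not called, with a median log2 ratio of -0.15. Over all tested probes 12.1% rose and 10.5% fell, and whether the 20 probes depart from these shares was not tested. These probes were added after the files had been read, by name and not by value.

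ABCC4, which exports cyclic nucleotides, prostaglandins and conjugates, gave log2 signals of 9.26 and 8.92 with DFM and 7.93 and 8.17 in the control. Its ratios of 1.34 and 0.76 had a mean of 1.05 (SE 0.16), or 2.07-fold higher, with limma's adjusted p = 0.00297. No other gene with an ABC symbol was called higher under either naming, and ABCC3, a basolateral conjugate exporter, fell. ABCC3 gave 8.22 and 8.23 with DFM and 8.66 and 8.62 in the control, a mean log2 ratio of -0.42 (SE 0.12), or 1.34-fold lower, with limma's adjusted p = 0.0435.

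ABCB10, a mitochondrial transporter needed for haem synthesis in mammals, fell on 1 of its probes. That probe (A_87_P012641) had ratios of -0.81 and -0.58, a mean of -0.69 (SE 0.13) or 1.62-fold lower, with limma's adjusted p = 0.00744. The second probe (A_87_P038866) had ratios of -0.35 and 0.16, of opposite sign, and was not called. Its mean log2 signal was 6.59, against 8.25 for the first probe. The apical efflux pump ABCG2 had a mean of -0.30 and was not called.

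The reticulum pump ATP2A3, which lymphocytes and other blood cells express in mammals, had ratios of 0.10 and -0.12 and the Golgi pump ATP2C1 a mean of -0.03. Neither was called, and the sign of the ATP2A3 mean of -0.01 turned under median centring. The vacuolar relatives ATP6V1G1 and ATP6AP2 had means of -0.29 and -0.20, the flippase ATP8B1 had -0.29, and the P5 pumps ATP13A3 and ATP13A4 had 0.01 and 0.14, none of them called. With both namings together, 49 probes were tested, of which 5 rose and 8 fell, beside 12.1% higher and 10.5% lower of all tested probes.

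**Figure D4:**
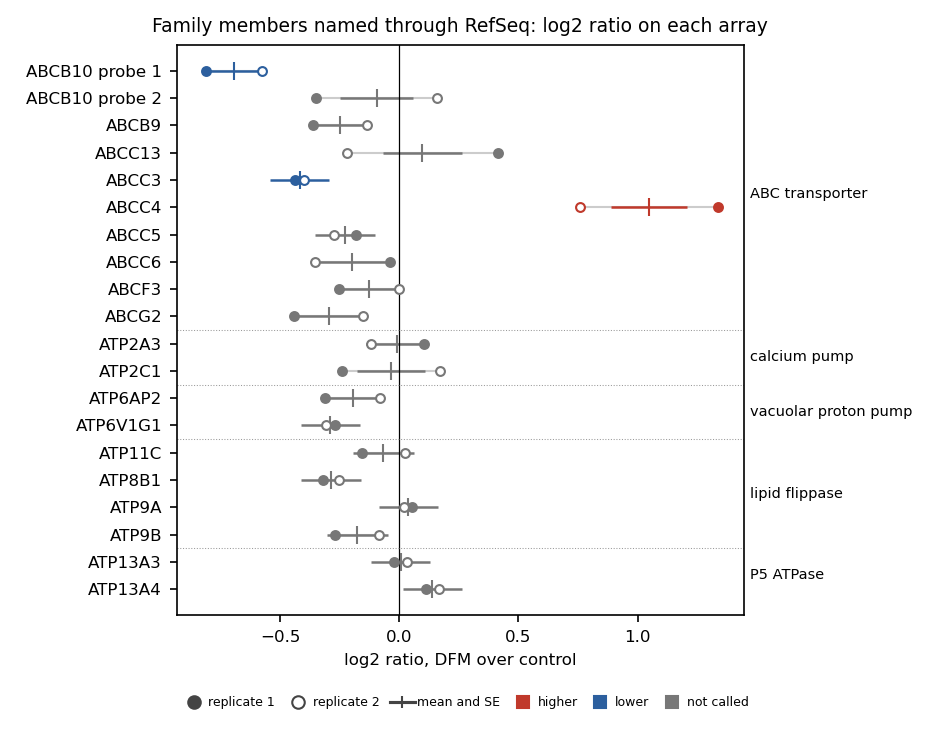
The log2 ratio of DFM over control of the 20 tested family probes named only through RefSeq, by class, with replicate 1 as filled and replicate 2 as open circles and the mean with limma's SE as a bar. ABCC4 is called higher, ABCC3 and 1 probe of ABCB10 are called lower, and the other 17 are not called.

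ABC transporters were also read beside the genes that serve or regulate them. In that fixed list, 2 of 13 tested probes rose, 1 fell and 10 were not called, with a median log2 ratio of -0.22. The shares of all tested probes were 12.1% higher and 10.5% lower, and whether the list departs from them was not tested. TAP2, which pumps peptides into the reticulum for MHC class I loading and is itself an ABC protein, rose with a mean log2 ratio of 0.44 (limma's adjusted p = 0.0396), although its channel signals overlapped between groups. NR1H3, the liver X receptor alpha that regulates cholesterol exporters, rose with 0.65 (limma's adjusted p = 0.00835). LMBRD1, the lysosomal cobalamin partner of ABCD4, fell by 1.11 on the log2 scale (limma's adjusted p = 0.000691). For copper, the name pattern found no ATP7 pump. Of 2 tested copper handling probes, the metallothionein MT4 had a mean log2 ratio of 0.88 (limma's adjusted p = 0.00225) and rose, and the copper importer SLC31A1 fell by 0.50 on the log2 scale (limma's adjusted p = 0.0245).

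Several of these transporters are expressed by enterocytes as well as lymphocytes, and markers of cell types were therefore read too. The marker lists were also chosen with earlier results of these data known. The shares of all tested probes were 12.1% higher and 10.5% lower, and whether a marker list departs from them was not tested. Enterocyte markers gave 13 of 23 tested probes lower, 1 higher and 9 not called, with a median log2 ratio of -0.63, and FABP2 and SI had no channel well above background. Their summed linear signal was 839495 and 688101 with DFM and 805923 and 930012 in the control, which overlapped. T cell markers gave 3 of 12 lower (CD3D, GZMA and IL2RG), 1 higher (CD5) and 8 not called, with PTPRC not well above background. Their median log2 ratio was -0.17. Their summed signals were 65158 and 58140 with DFM against 136759 and 127841 in the control. Such linear sums are weighted to the brightest probes and do not measure the number of cells. Exocrine pancreas markers gave 11 of 11 higher, with summed signals of 22584 and 21924 with DFM against 1403 and 1400 in the control, and PRSS2 and PRSS3 not well above background. Only 6 of these 11 probes were well above background in all 4 channels. The others met the filter through a single group, so that this count and these sums depend partly on the filter. Erythrocyte markers gave 1 of 4 higher and 2 lower. The part of these cell types in the transporter results was not tested.

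For the tested members the calls changed with the processing, while the signs of the means over both arrays did not. Only a background offset of 0, median centring and the scanner software's ratio recompute the ratios. Under each of these, the mean kept its sign for all 29 tested members. For median centring this could hardly fail, because a dye bias that both arrays share largely cancels in the mean over the dye exchange. The probe filters, the trend of the prior variance and the choice of probe per gene leave this mean unchanged by construction. The log2 ratios of single arrays did not always keep their sign. With median centring, every probe called higher was positive on replicate 1 and negative on replicate 2, such as ATP2A1 at 2.88 and -0.34. Of those called lower, ABCB4 had 0.18 on replicate 1 and -1.91 on replicate 2, and ATP6V1D had 0.42 and -1.27. ABCE1 stayed negative on both arrays, at -0.41 and -0.99, as did both ATP6V1E1 probes. Under median centring of each array in place of loess, 0 members were called by limma, with 1 higher and 0 lower at an unadjusted p under 0.05. With the scanner software's own ratio, 2 members were called lower by limma (ABCB4 and ATP6V0D1) and 0 higher, with 9 lower and 3 higher at an unadjusted p under 0.05. Over all tested probes, no count at an unadjusted p was made for median centring or the scanner ratio. In the reported fit, limma's unadjusted p was under 0.05 for 5 members higher and 12 lower. The same held for 3525 higher and 3219 lower of all 18242 tested probes. By the scanner software's p under 0.01 on both arrays, 1 member was higher (ATP2A2) and 5 were lower (among them ABCB4, ABCF2, ATP6V0D1 and 1 probe of ATP6V1E1), against 10.2% higher and 10.2% lower of all tested probes.

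**Figure D5:**
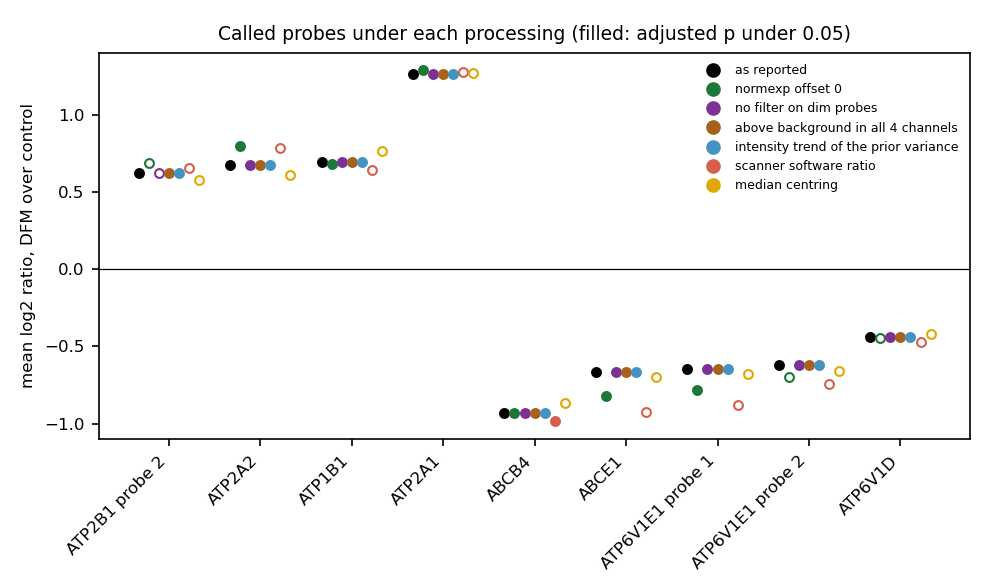
The mean log2 ratio of 9 of the 10 called members (vertical) under the reported processing and 6 alternatives, with filled circles where limma's adjusted p was under 0.05. Each probe stays on its side of 0, ABCB4 is open only under median centring, and no probe is filled under median centring. The probe filters and the prior trend leave the mean as reported by construction, and a dye bias that both arrays share largely cancels in it.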

How the data were processed

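The intensity columns that the authors deposited are mean spot signals and median local backgrounds of both dyes, per the file headers. Other deposited columns are the scanner software's log10 ratio of Cy5 over Cy3 after its own background and dye correction, its p-value within 1 array, its processed signals, and flags for dim, outlier, saturated and control spots. A further table from the authors holds log2 values that equal the log2 ratio of the processed signals turned to DFM over control (r = 1.00 on both arrays, column medians -0.274 and 0.204). Feature Extraction is given as 10.7.3.1 in the submitters' processing notes and as 9.5.3.1 in the file headers. Probe positions are those of the file headers, on galGal2. No annotation of that build was used, so exons and introns are not stated.

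The 43451 spots per array included 1417 controls. Mean signals were background-corrected (normexp, offset 50) and loess-normalized within arrays in limma 3.58.1 (R 4.3.3, with version 1.17.8 of the data.table package), with controls at weight 0. Replicate 2 was turned to DFM over control. Controls and outlier-flagged probes (0 and 5) were removed. Saturation flagged no probe. A probe was kept if, for DFM, for control or for both, it was well above background on each array. This left 18242 of 42034 probes, which were tested against 0 (lmFit, eBayes, two-sided, 1 residual degree of freedom, Benjamini-Hochberg over all of them, threshold 0.05). SE is limma's moderated standard error. A dye term would leave no residual degrees of freedom. Channel levels are after loess and Aquantile. The number of arrays limits the precision.

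Members were found by the array's gene names, and 35 of 36 matched a RefSeq entry (assembly GRCg7b, used for names only), 34 of them under the same symbol. The rule for the text named called members with a mean log2 ratio of at least 0.5 in size, their genes' other probes, each class's brightest probe and the smaller called members. Other members are named too, and 2 members that are counted are not reported by name here. The members, lists and rules were chosen with earlier results of these data known. Results and plots were made with Python 3.11.15, pandas 2.3.3, numpy 2.4.6 and matplotlib 3.10.9. Alternatives for background correction, normalization, probe filter, prior variance, arrays used and probes per gene were run.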

Additional observations from a re-analysis of the deposited data

How the results depend on the processing

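No paired analysis was possible because none remains beyond the reported fit, which itself pairs DFM with control within each array. Median centring in place of loess left 109 of all tested probes called higher and 8 lower, against 2202 and 1918. It called 0 members in either direction (1 higher at an unadjusted p under 0.05). Under it, limma's adjusted p was 0.999989 for each of the 13 called probes (10 members and 3 relatives named through RefSeq). The scanner software's ratio gave 1179 higher and 951 lower over all probes, and 0 members higher and 2 lower (ABCB4 and ATP6V0D1). The causes were not tested. The median log2 ratio of the members was -0.27, ran from -0.27 to -0.18 with 1 array left out, and was -0.060 over all 36 members with no filter on dim probes, which adds the 7 dim ones. The ATP2A3 mean of -0.01 turned to 1.36e-06 under median centring. Of the 13 called probes, 11 lost their call with the scanner ratio (ABCB4 and ABCC4 kept it), 4 with normexp at offset 0 (1 ATP2B1 probe, ATP6V1D, 1 ATP6V1E1 probe and ABCC3), 1 with no filter (ATP2B1) and 1 with an intensity trend of the prior variance (ABCC3). ABCF2 became called lower with the strict filter, the trend and offset 0, 1 ABCC10 probe with the trend and offset 0, and ATP6V0D1 with offset 0. Signal over background limits the 7 members that were not tested.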
